A study of Arabidopsis thaliana with 6 samples.

Results

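The probe sets described here are those whose signal was higher in myb3r1 myb3r4 seedlings than in wild-type seedlings in each of 3 experimental sets. They number 116 of the 22746 probe sets that are not controls. Each has a mean level above 0 over all 6 arrays, a mean difference of at least 0.8 and a difference of at least 0.4 in every set, and none is a plastid gene. A level is the log2 of a probe set's signal over the median signal of its array, so that a level of 0 lies in the middle of all probe sets. Differences are given on the log2 scale, as the level in the double mutant less that in the wild type grown in the same set. Probe sets of 16 genes, among them PDF1.2, WRKY53 and MSRB6, were left out by name, and 13 of these meet the same limits. Since the differences chose the members, the differences below are a description and carry no test. Of the 116 members 46 carry 1 gene, 4 match 2 neighbouring genes each and 66 are unnamed here, which does not mean that they have no gene.

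All 6 samples were whole seedlings of the Col-0 background, 9 days old, grown without treatment on sucrose-containing agar under constant light. The 3 wild-type samples carried no labelled mutation, and the other 3 carried the double mutation in MYB3R1 and MYB3R4. The labels name neither the alleles nor whether a set was a culture of its own. The single comparison asks which transcripts differ between the double mutant and wild type. In whole seedlings, more RNA per cell and more cells of a type cannot be told apart.

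MYB3R1 and MYB3R4 are transcription factors with 3 MYB repeats, known to regulate genes that act in mitosis and cytokinesis. Among the protein families met below, small antimicrobial peptides, chitinases and lectins are known to act on microbes, peroxidases to act on the cell wall and on oxidants, calcium sensors to relay signals, and efflux transporters to export small molecules. The 38 named probe sets with a known role were put into 8 groups after the members had been seen, and no family was tested for its share among the members.

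No probe set used here carries the name of MYB3R1 or MYB3R4, so the mutated genes were not analysed here. In the limma fit over 13648 probe sets, 72 passed an adjusted p of 0.05 (0.528%), of which 53 were higher in the mutant (0.388%) and 19 lower (0.139%). All 116 members were tested and 32 were among the 53. As the members were chosen on the same contrast, nothing is read from that count. The fit without set 1 called 1107 probe sets, without set 3 it called 207, and unpaired it called 1. With the same limits turned round and no gene left out by name, 28 probe sets were lower in every mutant set. The like count of higher probe sets, with no gene left out, was 129. With the division by the array median undone, 66 of the 116 members met the limits. The limma calls were then 41 higher and 33 lower. The 3' minus 5' signal of 6 pairs of control probe sets, a sign of RNA integrity, averaged 1.07, 3.04 and 3.22 for wild type in sets 1 to 3, and 1.5, 1.92 and 2.44 for the mutant. The 25S rRNA control stood at 1.87 in the mutant array of set 1 and between 5.46 and 5.99 in the other 5 arrays.

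The median member was 2.01-fold higher in the mutant, a difference of 1.01, where the median of all 11291 non-plastid probe sets with a mean level above 0 was 0.074. A mean difference of at least 1, or 2-fold, was reached by 60 members and missed by 56. The members' size of difference was unequal between the sets: its median over the members was 0.73, 1.48 and 0.88 in sets 1, 2 and 3. Set 2 held the largest of the 3 differences for 101 members and set 1 the smallest for 75. Among the 11291 probe sets the largest difference fell in set 2 for 37.8%. Between the mutant and the wild type of a set, the 3' minus 5' value of the controls differed by 0.44, -1.12 and -0.78 in sets 1 to 3. With that control difference as a covariate, an alternative chosen after seeing the data, the median difference of the members was 0.84. This value is a weighted mean of the 3 set differences, each of which the rule kept at 0.4 or above, so its sign was fixed by the choice of members. The part of the control difference in these results was not tested. In 60 members all 3 mutant arrays were above all 3 wild-type arrays, and 8.99% of the 11291 probe sets showed this. The rule used the same arrays, so nothing is read from that count or from the overlaps of single members or groups given below.

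**Figure D1:**
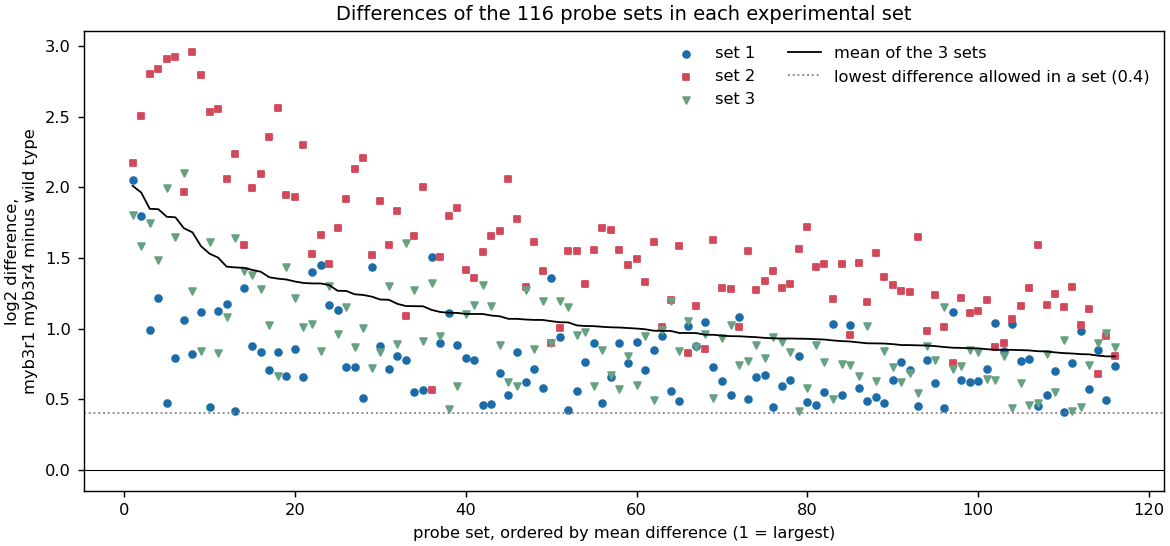
Log2 difference of each of the 116 probe sets in sets 1, 2 and 3 (points), ordered by the mean of the 3 sets (line), with the lowest difference allowed dotted at 0.4. The squares of set 2 lie on top for 101 members, and the circles of set 1 lowest for 75.

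The largest mean difference belonged to the unnamed probe set 252265_at, 4.03-fold. Its wild-type levels were 1.95, 2.44 and 1.97 and its mutant levels 4.0, 4.61 and 3.78 in sets 1 to 3, so that the lowest mutant array lay well above the highest wild-type array. AT3G28220, which encodes a protein with a TRAF-like domain, came next at 3.90-fold. Its levels were 0.29, -1.31 and 1.44 in wild type and 2.09, 1.19 and 3.03 in the mutant. Wild type in set 3 was thus above the mutant in set 2, although the mutant was higher within each set. A probe set shared by FAMT, a farnesoic acid methyltransferase gene, and its neighbour AT3G44870 was 3.60-fold higher. It stood at 1.78, -0.31 and 1.98 in wild type and at 2.77, 2.49 and 3.73 in the mutant, and the difference of 2.80 in set 2 went with the low wild-type value there. The 2 genes are close relatives and their signals cannot be separated.

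The next differences in size were those of 4 unnamed probe sets, AT2G18690 and AT5G52760. The brightest of them was 266746_s_at, with 5.63, 2.85 and 2.92 in wild type and 6.11, 5.76 and 4.91 in the mutant. Its wild-type array of set 1 was above the mutant array of set 3, and its difference was only 0.47 in set 1 against 2.91 in set 2. AT2G18690 showed the same shape at lower signal, with 2.07, -0.71 and 0.40 in wild type and 2.89, 2.25 and 1.66 in the mutant. AT5G52760, of the family of heavy-metal-associated domain proteins, had 3 nearly equal mutant levels, 1.37 ± 0.038 (SD, n = 3), and scattered wild-type levels, -0.22 ± 1.03 (SD, n = 3). With an offset of 0.5 of the array median before the log, its mean difference was 1.12 instead of 1.58. The probe sets 246099_at, 259925_at and 249732_at had mean differences of 1.85, 1.79 and 1.71, and 263539_at, 253161_at and 267567_at 1.53, 1.5 and 1.44.

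**Figure D2:**
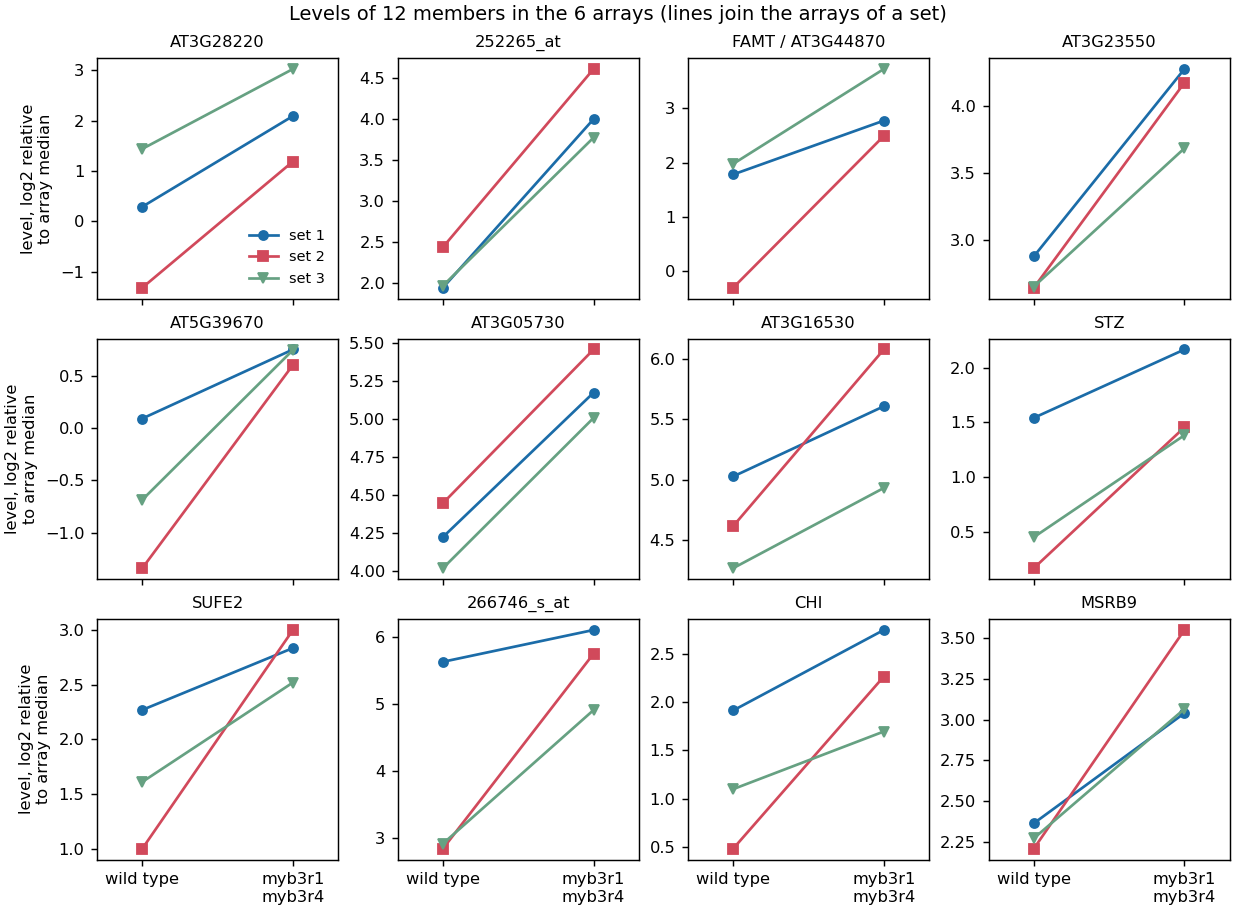
Levels (log2 relative to the array median) of 12 members in wild type and in myb3r1 myb3r4, with a line joining the 2 arrays of a set and a vertical scale of its own for each member. Lines run nearly parallel for AT3G05730 and 252265_at and converge toward the mutant for 266746_s_at and AT5G39670.

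The group called antimicrobial and wall-acting secreted proteins held 10 of the named probe sets, with mean differences from 0.82 to 1.16 and a median of 0.97. Genes were placed in it by family, and an action on microbes or on the cell wall is not shown here for any of them. The defensin-like gene AT3G05730 was the most even of all members. It had levels of 4.22, 4.45 and 4.02 in wild type and 5.17, 5.46 and 5.01 in the mutant, and differences of 0.95, 1.01 and 0.99. AT2G43535 and AT2G43530, neighbouring genes of small cysteine-rich peptides of the knottin fold, stood at 2.25 ± 0.066 and 3.35 ± 0.32 (SD, n = 3 each) in wild type, and at 3.31 ± 0.38 and 4.17 ± 0.44 in the mutant. All 3 mutant arrays were above all wild-type arrays for AT2G43535 and not for AT2G43530. The chitinase gene CHI, whose product attacks a polymer of fungal walls, rested on set 2 more than on the others: 1.91, 0.48 and 1.1 in wild type and 2.74, 2.26 and 1.69 in the mutant. AT3G47540, of the chitinase family, was 2.06-fold higher, with differences of 0.42, 1.55 and 1.16. AT4G11190, of the dirigent family, which guides the coupling of phenolic radicals, had a mean difference of 0.93 at a low level. A probe set shared by the germin-like genes AT5G38940 and AT5G38930 had 0.93 as well, but its wild-type levels ran from -0.68 to 1.57. AT3G16670, which encodes a protein of the pollen Ole e 1 allergen family, AT4G22490, of the lipid transfer family, and AT1G22690, of the gibberellin-regulated GASA family, had mean differences of 1.16, 0.95 and 0.83.

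Lectins bind sugars on microbial or plant surfaces, and beta-glucosidases release toxic aglycones from stored glucosides. AT3G16530, a legume lectin gene, was the brightest member in wild type. Its levels were 5.03, 4.62 and 4.27 in wild type and 5.61, 6.08 and 4.93 in the mutant, with the wild-type array of set 1 above the mutant array of set 3. AT5G18470, of the mannose-binding curculin-like family, had a mean difference of 1.24, of which set 2 showed 2.13. A probe set shared by the beta-glucosidase genes BGLU21 and BGLU22 had levels of 4.17, 2.68 and 2.71 in wild type and of 4.61, 3.69 and 3.87 in the mutant. Both belong to the group of PYK10, the abundant root beta-glucosidase. Of 18 root markers 4 had a named probe set (PYK10, NAI2, EXPA7 and EXPA18), and EXPA7 and EXPA18 were below the array median on average. The summed signal of the 4, relative to the array median on a linear scale, was 95.9, 62.6 and 58.5 in wild type and 110.1, 97.7 and 66.8 in the mutant, and its part in the result was not tested. For 3 green shoot markers of 13 listed (RCA, PRK and PSAE-1), the sum was 234.3, 195.7 and 204.3 in wild type and 296.1, 233.1 and 250.7 in the mutant. Both marker sums were thus higher in the mutant in every set, and the part of the green shoot sum was not tested either. PYK10 made up most of the root sum in every array, so that sum says little about the other root markers. In set 1 EXPA7 and EXPA18 were lower in the mutant, by -0.027 and -0.52, and NAI2 differed by 0.083. All 4 root markers were higher in the mutant in sets 2 and 3.

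Calcium sensors turn a rise of cytosolic calcium into a response. The 4 calcium-binding members had mean differences between 0.96 and 1.35, and in each of them every mutant array was above every wild-type array, as in 8.99% of the 11291 probe sets. A keyword search for calmodulin-like and calcium-binding genes did not find these 4 members. It gave 4 tested genes not left out by name, with 2 above and 2 below 0 and a median of 0.15. Of these, 0 passed in limma. CML41, which passed at a difference of 1.18 (limma adjusted p = 0.0294), was left out by name and is not counted. AT5G39670, with EF-hand domains, stood at 0.09, -1.34 and -0.69 in wild type and at 0.75, 0.61 and 0.75 in the mutant. The mutant levels were alike in the 3 sets and the wild-type levels were not. The gene's mean level of 0.029 was just above the limit of the rule. With an offset of 0.5 of the array median before the log, its mean difference was 0.87 instead of 1.35. AT3G47480 and AT3G10300, which also carry EF-hands, had mean differences of 1.06 and 0.96, and AT3G55470, with a C2 domain that binds lipids in the presence of calcium, had 0.97.

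Transporters that export small molecules included AT3G23550 and AT1G71140 of the MATE family. AT3G23550 stood at 2.88, 2.64 and 2.65 in wild type and at 4.27, 4.17 and 3.68 in the mutant, a 2.50-fold mean difference. Its 3 wild-type arrays were close together and all below the mutant arrays. AT1G71140 was dimmer and less even, with differences of 0.84, 2.56 and 0.66.

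Peroxidases and redox proteins accounted for 6 probe sets. MSRB9 encodes a reductase that repairs oxidised methionine. Its levels were 2.37, 2.21 and 2.27 in wild type and 3.04, 3.55 and 3.06 in the mutant, so that wild type was tight and the groups were apart. SUFE2, which encodes an activator of sulfur transfer for iron-sulfur cluster assembly, stood at 2.27, 1.0 and 1.61 in wild type and at 2.83, 3.0 and 2.52 in the mutant. The groups were again apart, by a narrower margin set by the wild-type array of set 1. AT2G29340, of the short-chain dehydrogenase family, had a mean difference of 1.36. The thioredoxin-fold gene AT5G38900, the peroxidase gene AT5G58390 and the probe set of the peroxidase genes AT4G37530 and AT4G37520 had 0.97, 0.93 and 0.82.

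Other enzymes among the members were the O-methyltransferase gene AT1G33030 (1.18), the tautomerase gene AT3G51660 (0.92), the oxygenase gene AT5G43450 (0.82) and the phosphoglycerate mutase family gene AT3G60420 (0.81), with the mean difference in parentheses. AT3G60420 was the only gene with another probe set, which lay between -7.64 and -4.18 and thus too dim to compare. Regulators were few. STZ, also known as ZAT10, encodes a zinc finger repressor induced by abiotic stress and had levels of 1.54, 0.17 and 0.45 in wild type and 2.17, 1.46 and 1.38 in the mutant. The bHLH gene AT1G10585, the RING finger gene AT5G47610 and the F-box gene AT1G23390, whose product is known to target chalcone synthase for degradation, had mean differences of 1.0, 0.86 and 0.85. AT1G23390 was 2.43 brighter in set 1 than in sets 2 and 3 when both genotypes were averaged, the largest such shift of the named members. Of genes tied to immune signalling, the TIR-domain gene AT1G72920 had mean levels of -0.0019 ± 0.27 and 0.85 ± 0.086 (SD, n = 3 each), wild type first. AT3G28940, of a family named after an avirulence-induced gene, was bright, at 4.32 ± 0.36 and 5.24 ± 0.34 (SD, n = 3 each). In both genes all mutant arrays were above all wild-type arrays.

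**Figure D3:**
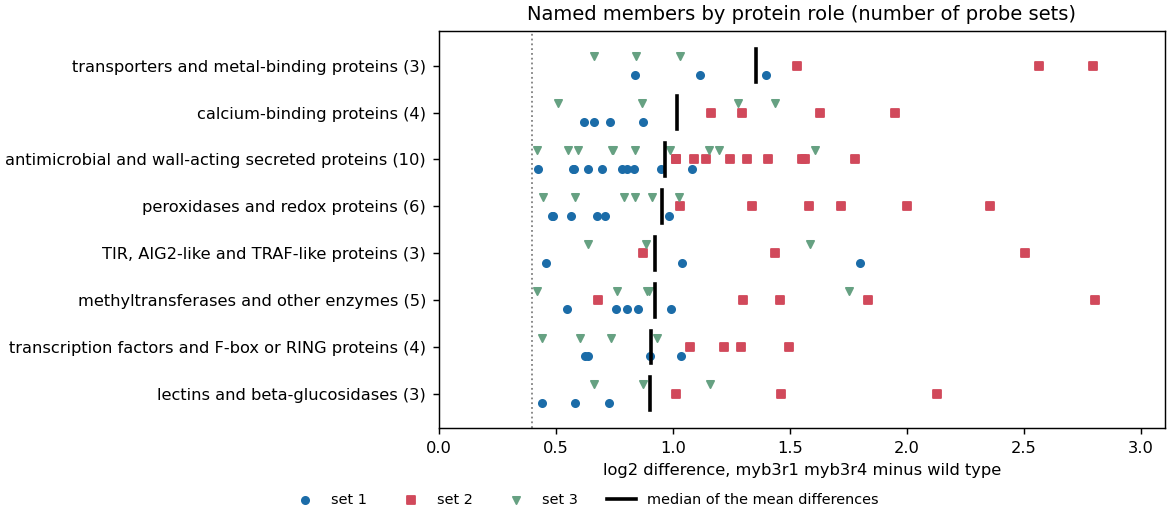
Log2 difference in sets 1, 2 and 3 of the named members in 8 groups of protein role, with a bar at the median of the mean differences of each group. The medians lie between 0.90 (lectins and beta-glucosidases) and 1.35 (transporters and metal-binding proteins), and the set 2 points extend farthest to the right.

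The members without a place in these groups include AT3G18250, AT1G22890, AT1G62422, AT1G19020, AT3G60540, AT4G36500, AT1G48200, AT3G28270, AT1G62780, AT5G42680 and AT3G12685, with mean differences from 0.80 to 1.12. AT3G60540 encodes a beta subunit of the Sec61 channel, through which new proteins enter the endoplasmic reticulum, with mean levels of 0.094 ± 0.20 and 1.03 ± 0.36 (SD, n = 3 each), wild type first. AT1G62780 stood at 2.46 ± 0.20 and 3.32 ± 0.066, and AT1G19020 at 1.51 ± 0.24 and 2.47 ± 0.26 (SD, n = 3 each). For these 3 genes every mutant array lay above every wild-type array. The 66 unnamed probe sets had mean differences from 0.80 to 2.01 with a median of 1.05, and the genotypes did not overlap in 33 of them, a count tied to the rule like that of all members (8.99% of the 11291 probe sets).

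Members differed in how even their 3 differences were. The range of the 3 differences was under 0.5 for 21 members and over 1 for 43. The even members included AT3G05730 (a range of 0.061), 250074_at (0.088), AT3G12685 (0.13), AT1G19020 (0.19), AT1G62422 (0.23), AT3G55470 (0.29) and 252265_at (0.37). The ranges were widest for 266746_s_at (2.43), AT2G18690 (2.14) and 259925_at (2.13). Of the 43 uneven members 42 had their largest difference in set 2, and of the 21 even members 10 did. The median SD over the wild-type arrays was 0.72 for the uneven and 0.36 for the even members, while over the mutant arrays it was 0.41 and 0.35.

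The members also differed between sets in their level. The mean of both genotypes of a set comes from the arrays the rule used, and a low wild-type value both lowers it and enlarges the difference, so the values that follow are a description tied to the choice of members. For the members the median of this set mean was 2.03, 1.33 and 1.51 in sets 1 to 3, and for the 11291 probe sets 1.6, 1.58 and 1.55. Set 1 was the highest for 85 members (73.3%), and for 45.0% of the 11291 probe sets. Set means spanned at least 1, or 2-fold, in 49 members (42.2%) and in 6.68% of the 11291. Wild-type arrays carried more of this spread than mutant arrays: the median SD of the members was 0.65 in wild type and 0.42 in the mutant, against 0.26 and 0.21 for the 11291. The median member level in wild type was 1.65, 0.47 and 1.09 in sets 1 to 3, so the wild type of set 2 was the lowest array and that of set 1 the highest of the 3. The 3' minus 5' control value, given above, was lowest in the wild-type array of set 1, and its part in this pattern was not tested.

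**Figure D4:**
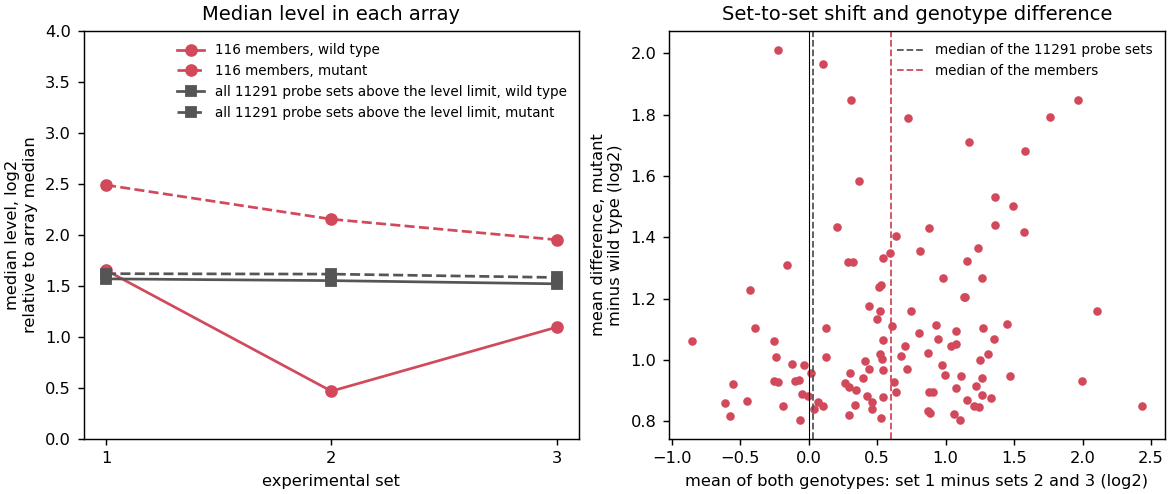
Left, median level of the 116 members and of all 11291 probe sets above the level limit in each array, by set, with wild type as solid and mutant as dashed lines. Right, for each member, the set 1 minus sets 2 and 3 shift of the mean of both genotypes (log2) against its mean difference, with the median shift dashed at 0.60 for the members and 0.033 for the 11291 probe sets.

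In 52 of the 56 members whose genotypes overlapped, the wild-type array of set 1 alone reached above the lowest mutant array. Wild-type means ran from -0.80 to 4.64 with a median of 1.1, and 26 members were on average below the array median in wild type. Against all 22746 probe sets, the wild-type levels lay between percentile 40.4 and percentile 97.8.

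Several named members are near each other in the gene order of the TAIR10.1 annotation. AT2G43530 and AT2G43535 are adjacent on chromosome 2, and CHI lies 4 genes beyond AT2G43535. The 3 named genes between them were not members: AT2G43540, AT2G43550 and AT2G43560 had mean differences of 0.11, -0.028 and 0.27. AT3G28220 and AT3G28270 are 5 genes apart on chromosome 3. AT3G47480 and AT3G47540 are 6 genes apart on the same chromosome, with mean differences between -0.15 and 0.23 at the 4 named probe sets between them. On chromosome 5 AT5G38900 lies 3 genes from AT5G38930. Between them AT5G38910 had a mean difference of 1.21, with 0.21, 0.62 and 2.81 in sets 1 to 3, but its mean level of -4.43 was far below the limit of the rule. Of the 46 members with 1 gene, 13, 5, 16, 4 and 8 lie on chromosomes 1 to 5. These are 28.3%, 10.9%, 34.8%, 8.70% and 17.4%, where the probe sets above the level limit had 25.9%, 14.5%, 20.9%, 14.5% and 24.2%.

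Genes of related families that were neither members nor left out by name were tested in the same fit. The lists and families of stress, defence, redox, wall and regulatory genes held 115 tested genes of this kind, of which 0 passed in limma and 37 had an unadjusted p under 0.05 (32.2%, against 17.4% of all tested probe sets). Their median difference was 0.17, where that of all tested probe sets was 0.058, and 84 of the 115 were above 0 (73.0% against 58.3%). The lists and families were chosen with earlier results of these data known, and many of the 115 are close relatives. These shares are thus a description and no independent support. The fit without replicate 1 called 24 of them, without replicate 2 it called 2 and without replicate 3 it called 1. Over all 13648 tested probe sets the same 3 fits called 1107, 107 and 207. Families held only genes whose symbol or synonym matched a keyword. All 10 thioredoxin and glutaredoxin genes were above 0 with a median of 0.35. So were 10 of 12 cytochrome P450 genes (0.39), 5 of 6 peroxidase genes (0.25) and 18 of 25 UDP-glycosyltransferase genes (0.17). In each of these families 0 genes passed. The 12 cytochrome P450 genes all belong to the CYP71B subfamily, so they do not stand for the whole P450 family. Expansin and xyloglucan endotransglucosylase genes were split, 8 above and 8 below 0, with a median of 0.046. Of 5 bHLH genes (ILR3, bHLH34, bHLH104, bHLH115 and bHLH121) 4 were below 0 (-0.13), and of 3 WRKY genes 2 were (-0.0069). WRKY53, at 0.94 (limma adjusted p = 0.0462), and WRKY6, at 0.68 (limma adjusted p = 0.104), were left out by name and are not counted. The 3 WRKY genes thus do not stand for the family. The largest differences among the 115 were those of the jacalin lectin gene JAL23, at 1.08 (SE 0.29, limma adjusted p = 0.151), and of CYP71B23, at 1.04 (SE 0.26, limma adjusted p = 0.131). JAL23 had 0.018 in set 1 and thus missed the limit there, while CYP71B23 had 0.28. JAL23 had an adjusted p of 1.83e-04 without replicate 1, where CYP71B23 had 0.00211, and CYP71B23 had 0.0427 without replicate 3 (limma in each case). Both genes were picked for the size of their differences, and set 1 held the smallest difference of each. Nothing is therefore read from these p-values. At the other end were the expansin gene EXPB3, at -0.60 (SE 0.20), and the calmodulin-like gene CML38, at -0.47 (SE 0.17), neither of which passed (limma adjusted p = 0.199 and 0.219). Many listed genes had no named probe set. Of 21 jasmonate and wounding genes 2 had one, neither of them bright enough to be tested. Of 18 salicylic acid and systemic resistance genes 2 had one, GRX480 at 0.75 and SAG101 at 0.43. GRX480 had differences of 0.93, -0.0075 and 1.31 in sets 1 to 3, and neither gene passed (limma adjusted p = 0.201 and 0.253).

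The limits cut through a continuous range. Just inside the limit on the mean lay AT3G12685 (0.8032), 253790_at (0.8035) and AT3G60420 (0.8090), and just outside it AT3G09405 (0.7999), 245244_at (0.7995) and AT2G25450 (0.7990). The smallest single differences inside were those of 262832_s_at (0.4093), AT4G11190 (0.4189) and AT5G43450 (0.4190), and outside those of 253666_at (0.3988), 261420_at (0.3799) and 263584_at (0.3695). By level, 246272_at (0.0019), 261470_at (0.023) and AT5G39670 (0.029) were just inside. A probe set of AT1G66700 and AT1G66690 (-0.0048), one of AT1G57990 and AT1G57980 (-0.019) and 261033_at (-0.039) were just outside.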

How the data were processed

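Per the submitters' processing notes, the authors summarised the Affymetrix signals with MAS5, which makes 1 signal per probe set from matched and mismatched probes. What the authors deposited are log2 values centred on 0 in every column. The median centring is named in no label and takes out shifts common to most transcripts. Before it, the mean signal trimmed by 2% was about 500 in every array. The median signal was 197.9, 213.1 and 217.0 in wild type and 185.55, 190.95 and 199.65 in the mutant in sets 1 to 3. Dividing by the median thus raised the mutant differences, and the marker sums of the mutant, in every set. A lone value standing for a signal of 0 was set to the smallest value of its array. Gene names came from the platform annotation, updated by gene identifier through RefSeq's table (TAIR10.1); 13513 of 22746 probe sets carried 1 gene.

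The brightest 60% of probe sets (13648) entered a fit with limma 3.58.1 (R 4.3.3), blocking on the experimental set, with a mean-variance trend, and p-values were adjusted by Benjamini-Hochberg. The labels name the shared set; the deviations of its 2 arrays from the genotype means correlated by 0.67, 0.28 and 0.62 in sets 1 to 3, while wild type of set 2 with the mutant of set 3 gave 0.37, more than with its own. The fit was checked on simulated data. Alternatives changed the scaling, the filter, the block, the limits of the rule and the sets included. Since no label calls the sets independent cultures, p-values reflect the spread among these arrays alone, possibly a technical one, and 3 arrays per genotype limit the precision. The members and lists were chosen with earlier results of these data known. Families were found by keywords in gene symbols and synonyms, since the gene table holds no product text. The rule for named genes took the 12 largest mean differences, up to 4 members of each family, the 3 smallest and 3 largest spreads between sets, the 3 brightest members, the 3 probe sets on each side of each limit and, of family genes that are not members, those called and the 2 largest differences either way; any other member with 1 gene could be named with its mean difference. The groups of protein role were made after the members were seen, as was the choice of the further members whose levels are given, and of GRX480 and SAG101.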

Additional observations from a re-analysis of the deposited data

How the results depend on the processing

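The limits were met by 66 probe sets with the median division undone, 83 with quantile normalization and 71 with an offset before the log. Of these, 66, 83 and 70 were among the 116 members. Undoing the division moved the median difference over all probe sets in the fit by -0.12, to -0.066, and turned the split of calls from 53 higher and 19 lower to 41 and 33. Other limits gave 497 (no limit on the mean level), 60 and 189 (mean difference of at least 1 and 0.6) and 67 (each difference at least 0.6). Leaving out 1 set gave 69 to 406 probe sets meeting the limits, with 406 without set 1, 69 without set 2 and 184 without set 3. The median difference of the members was 0.79 to 1.14 when 1 set was left out. Over all tested probe sets limma called 72 in the paired fit, 1 with no replicate block, 14 with no filter on dim probe sets, 43 among the brightest 40%, and 107 to 1107 with 1 set left out, 1107 of them without set 1 and 207 without set 3. Of the listed genes that are not members it called 1 to 24 with 1 set left out. The planned search for promoter motifs was not run, and the check of MYB3R1 and MYB3R4 gave no value.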
